A study of Mus musculus with 3 samples.

Results

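Chemokines and their receptors were followed across 3 arrays of mouse left ventricle. A probe set entered the set when the RefSeq symbol of its Entrez gene number began with Ccl, Cxcl, Cx3cl or Xcl and a number, or was Ccr, Cxcr, Cx3cr or Xcr and a number. This took 52 of 25206 probe sets, 1 per gene, made up of 34 ligands and 18 receptors. The ligands were 19 of the CC class, 13 of the CXC class, 1 CX3C and 1 XC gene, and the receptors 10, 6, 1 and 1 of the same classes.

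All mice were male C57BL/6N aged 8 to 12 weeks, and left ventricles were taken at 14 days. The Control array came from mice with an osmotic pump of vehicle and saline injections, the Iso array from mice with the vehicle pump and isoproterenol, a beta-adrenergic agonist given into the peritoneum at 50 mg/kg per day for 11 days to injure the heart. Mice of the Iso+Insl6 array received INSL6 protein, a relative of relaxin and insulin, infused subcutaneously at 50 to 70 nmol/kg per day, with isoproterenol as on the Iso array. Each array held 3 pooled RNA samples, and the labels do not say how many mice these came from. With 1 array per group there were no replicates, so differences carry no error between animals and no p-value, and "higher" and "lower" describe the listed values of the arrays.

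Chemokines are small secreted or membrane-tethered proteins that guide the movement of cells, above all leukocytes, along gradients held on heparan sulfate at the vessel wall. They are classed by the spacing of the first cysteines of the chain, and act on receptors with several membrane-spanning segments that signal through the Gi class of G proteins. Some members are made steadily and keep cells in place, while others are induced by cytokines in injured tissue and draw in monocytes, neutrophils or T cells. In the injured heart the pairing of CCL2 with CCR2 is known for the entry of blood monocytes, and that of CXCL12 with CXCR4 for the retention of progenitor cells.

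The results turn mainly on Ccl6 and Ccr2, and the sequences before the starts of these genes are shown with that of Ccl9, which lies next to Ccl6 on chromosome 11. Each is the 250 bases before the gene's start in RefSeq's table for GRCm38.p6, read 5′ to 3′ on the gene's strand. They cover chr11:83593088-83593337 on the minus strand for Ccl6, chr11:83578637-83578886 on the minus strand for Ccl9 and chr9:124101933-124102182 on the plus strand for Ccr2. Capitals mark matches on either strand to TATAAA, to the kappa B motif of the NF-kappa B factors, to TTCNNNGAA of the STAT factors, to GAGGAA of the myeloid factor PU.1 and to TGANTCA of AP-1.
Ccl6: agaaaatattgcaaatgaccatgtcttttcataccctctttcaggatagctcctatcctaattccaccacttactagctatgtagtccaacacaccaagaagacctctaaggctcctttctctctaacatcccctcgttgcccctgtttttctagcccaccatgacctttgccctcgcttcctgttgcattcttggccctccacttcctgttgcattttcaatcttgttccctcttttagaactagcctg
Ccl9: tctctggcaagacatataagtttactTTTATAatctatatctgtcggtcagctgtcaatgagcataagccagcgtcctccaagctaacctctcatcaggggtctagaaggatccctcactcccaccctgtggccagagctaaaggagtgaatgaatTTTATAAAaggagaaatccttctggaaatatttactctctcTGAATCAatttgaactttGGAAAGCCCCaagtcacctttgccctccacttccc
Ccr2: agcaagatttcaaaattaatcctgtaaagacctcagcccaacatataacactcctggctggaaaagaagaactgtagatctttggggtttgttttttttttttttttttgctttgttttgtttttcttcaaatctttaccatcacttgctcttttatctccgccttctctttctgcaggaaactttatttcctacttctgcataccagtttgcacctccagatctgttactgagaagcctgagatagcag
The Ccl9 sequence held TATAAA 3 times, 2 of them overlapping, with a TGANTCA match that began 53 bases before the start and a kappa B match that began 35 bases before it. None of the 5 motifs was spelled in these 250 bases of Ccl6 or of Ccr2, which says only that those letters are not in these windows. The table held a promoter for 37 of the 52 genes. Among those 37, the kappa B motif was found in 9 (24.3%), TATAAA in 10 (27.0%), GAGGAA in 11 (29.7%), TGANTCA in 4 (10.8%) and TTCNNNGAA in 3 (8.11%). Over the 17708 measured genes with a promoter the shares were 7.80%, 11.7%, 22.6%, 6.39% and 6.80%, in the same order. Among the 10 promoters of genes that exceeded the background level of the arrays, the kappa B motif was found in 1, TATAAA in 4 and each other motif in 1. A match is a run of letters and not a measured site.

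The arrays were given as log2 values, so that a difference of 1 is 2-fold, and the median of all values, which every array shared and which lay between 4.10 and 4.20, served as the background level. Of the 52 genes, 17 lay above background on the Control array, 15 on the Iso array and 16 on the Iso+Insl6 array. Over the 23740 named genes the shares above that level were 51.0%, 51.1% and 51.0%, against 32.7%, 28.8% and 30.8% of the chemokine and receptor genes. The remaining 35 genes did not exceed it on any array. Ligands were above it in 13 of 34 cases on Control and receptors in 4 of 18. Levels of different probe sets are not comparable with each other, so each gene is read against background and against itself. In bulk tissue, fewer cells of a type and less RNA per cell cannot be told apart.

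The labelled tissue showed its defining genes, as all 10 heart muscle markers lay between 10.63 and 12.45, among them Myh6, Tnnt2 and Actc1. Of the leukocytes on which chemokine receptors sit, macrophages and monocytes had the largest share of markers above background, 17 of 19 measured on every array. Such shares depend on the probe sets and do not rank cell numbers. Neutrophil markers reached it in 0 of 12 cases, T and NK cell markers in 3 of 16, B and plasma cell markers in 1 of 10, dendritic cell markers in 2 of 10 and mast cell markers in 2 of 8. These lists overlap the set itself, with Cxcr2 among the neutrophil and Ccr7 and Xcr1 among the dendritic cell markers. Ccr7 is among the 2 dendritic cell genes above background. The S100a8 and S100a9 genes of neutrophils stood at 2.63 or less. The 3 T and NK cell genes above background were Trac, Cd28 and Prf1. On Control, Iso and Iso+Insl6, Trac was at 4.73, 4.66 and 4.60, Cd28 at 5.47, 5.39 and 5.39, and Prf1 at 4.36, 4.36 and 4.32. Cd3e of T cells was at 3.11 on every array. Liver genes stood apart on 1 array: all 12 liver markers were at least 1.5-fold higher on Iso+Insl6 than on Iso, against 1.49% of all genes at or above background. Albumin, Alb, was at 8.78, 8.97 and 11.12 on Control, Iso and Iso+Insl6. The log2 of the summed level of the 12 was 10.26, 10.14 and 12.56 in that order. The part of that liver signal in any chemokine difference that involves the Iso+Insl6 array was not tested.

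**Figure D1:**
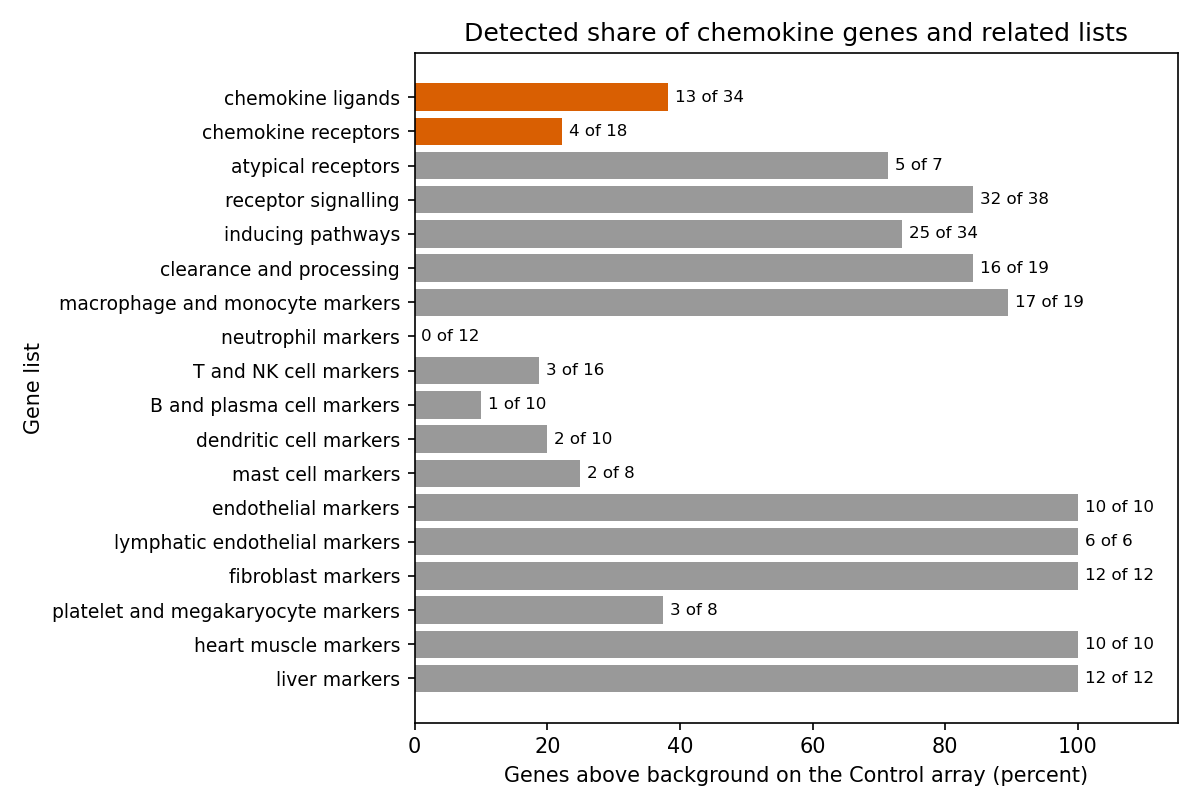
Percent of each gene list above background on the Control array, with the count beside each bar; chemokine ligands (13 of 34) and receptors (4 of 18) are in orange and related lists in grey. Macrophage and monocyte markers were above it in 17 of 19 cases and neutrophil markers in 0 of 12.

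The CXC ligands of stromal and vessel cells were above background on every array. Cxcl12 (Entrez gene 20315), the ligand of CXCR4 made by fibroblasts and endothelium, was listed at 7.28 on Control, 7.20 on Iso and 7.20 on Iso+Insl6. Cxcl14 (57266), a chemokine of epithelia and connective tissue, was listed at 7.14, 6.93 and 7.14. Cxcl12 thus differed by 0.08 at most, and Cxcl14 was lower on Iso alone, by 0.21. Cxcl16 (66102), which is tethered to the membrane and binds CXCR6, was at 6.10 on every array. Cx3cl1 (20312), or fractalkine, the other tethered chemokine of vessel walls, was at 4.79 on every array. Cxcl9 (17329), which interferon gamma induces and which attracts T cells through CXCR3, was at 6.22, 6.15 and 5.92. Its difference from Control was -0.07 on Iso and -0.30 on Iso+Insl6, or 1.23-fold lower on the latter.

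Several CC ligands of monocytes and macrophages differed between arrays. Ccl2 (20296), the chief ligand of CCR2, stood at 4.60 on Control, 4.08 on Iso and 4.06 on Iso+Insl6. It was above background on Control alone, so that it was at least 1.36-fold lower on either isoproterenol array, and the listed differences were -0.52 and -0.54. Ccl7 (20306), the gene next to Ccl2 and another CCR2 ligand, stood at 4.58, 4.32 and 4.32, 1.20-fold lower on both. Ccl6 (20305), a macrophage chemokine of rodents that acts through CCR1, stood at 4.41, 3.69 and 4.20. Its Iso value lay below background, and its Iso+Insl6 value lay between those of the other arrays. Ccl9 (20308), the neighbour of Ccl6 and likewise a CCR1 ligand, followed the same order at 6.40, 6.13 and 6.26. The Ccl6 window printed above and that of Ccl9 differ in the motifs they spell, and whether either sequence bears on these levels was not tested.

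The other CC ligands above background gave the same value on all 3 arrays. These were Ccl11 (4.48), an attractant of eosinophils, Ccl25 (4.60), known from thymus and gut, and the T cell and monocyte attractants Ccl4 (4.24) and Ccl5 (4.24). The eosinophil attractant Ccl24 lay at the background level on Control and at 4.10 on both other arrays. Ccl12, a further CCR2 ligand of the mouse, lay below background at 3.44 on every array, and Ccl8 at 2.55.

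**Figure D2:**
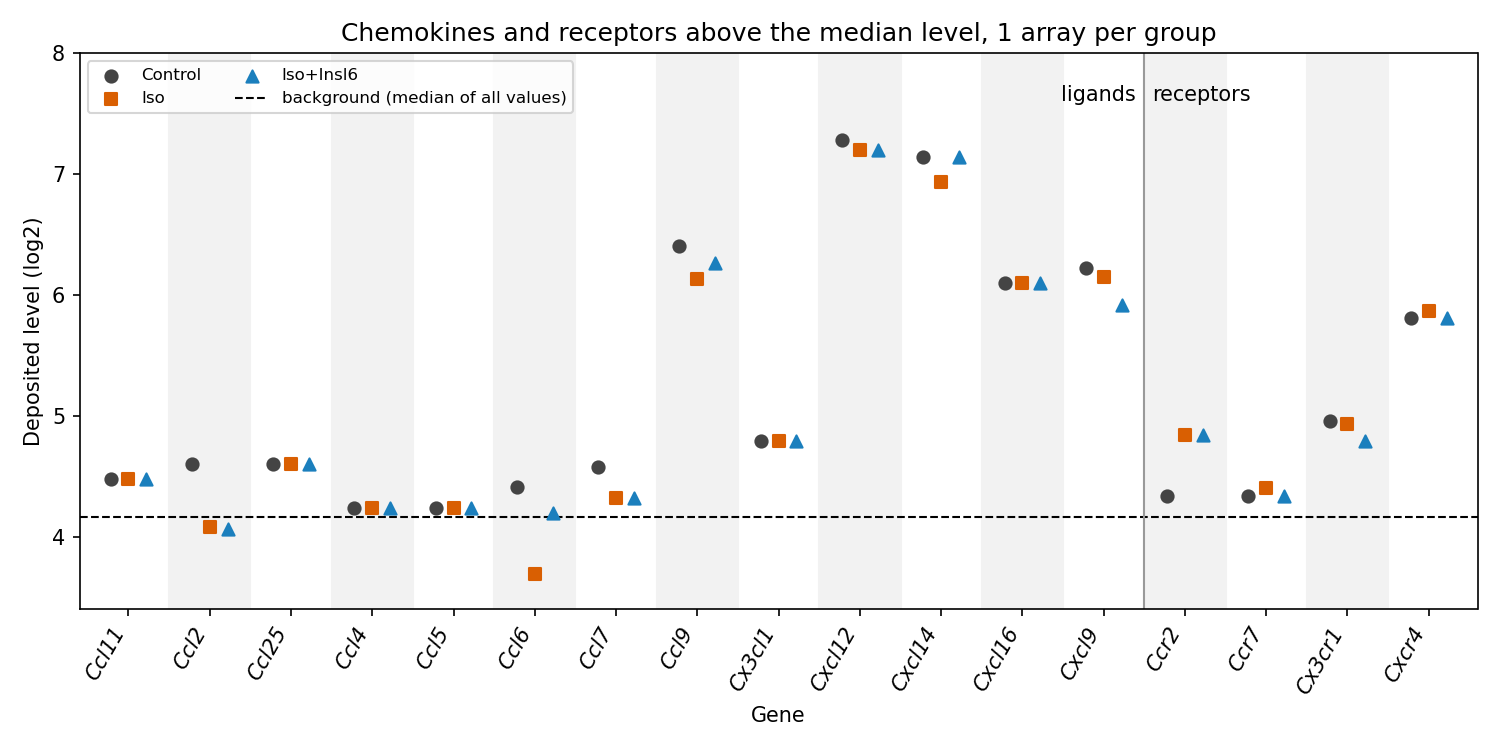
Deposited log2 level of the 17 genes above background (dashed line, the median of all values) on any array, ligands left and receptors right, with 1 point per array for Control (circle), Iso (square) and Iso+Insl6 (triangle). Ccl2 falls below the line on both isoproterenol arrays and Ccl6 on Iso alone, while Ccr2 stands at 4.34 on Control and 4.84 on both others.

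Among receptors, 4 exceeded background, and each did so on every array. Ccr2 (12772), the receptor that brings classical monocytes out of marrow and into tissue, was listed at 4.34 on Control, 4.84 on Iso and 4.84 on Iso+Insl6, 1.41-fold higher on both. It was higher on the arrays on which its ligands Ccl2 and Ccl7 were lower, but both arrays are set against the same single Control array. Ccl12, its further ligand, was at 3.44 on every array. Cxcr4 (12767), the receptor of CXCL12, was at 5.81, 5.87 and 5.81. Ccr7 (12775), which steers dendritic cells and T cells to lymph nodes, was at 4.34, 4.40 and 4.34. Cx3cr1 (13051), the fractalkine receptor of resident macrophages and patrolling monocytes, was at 4.96, 4.93 and 4.79. Apart from Ccr2, the receptors differed between any pair of arrays by 0.17 at most. Among genes of the monocyte and macrophage list, Ly6c2 of classical monocytes was at 6.28, 6.47 and 6.54, and Cd14 at 4.66, 4.38 and 4.38. Adgre1 (4.93), Csf1r (6.42) and Itgam (4.93) had the same value on all 3 arrays. Of the 17 genes of this list above background, 3 were higher and 5 lower on Iso than on Control. Over all genes at or above background 19.7% were higher and 27.3% lower. None of the 17 macrophage and monocyte markers above background reached 1.5-fold in any comparison, and their median difference was 0.00 in each. Over all genes at or above background, the shares past 1.5-fold in either direction ran from 0.506% to 1.96% across the comparisons. With shares that small, 0 of 17 allows no further reading.

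Ligands and receptors were not always both above background. The pairs Cxcl12 and Cxcr4, Cx3cl1 and Cx3cr1, and Ccl2 or Ccl7 with Ccr2 had both partners above background on Control. Other ligands above background had their main receptor below it: Cxcr3, the receptor of CXCL9, at 3.97, Cxcr6, that of CXCL16, at 1.95 or less, Ccr9, that of CCL25, at 3.49, Ccr3, that of CCL11, at 1.30 and Ccr1, that of CCL6 and CCL9, at 2.50. In turn Ccr7 was above background while its ligand Ccl19 was at 2.24, 2.15 and 1.85. The remaining CC receptors were below background, with Ccr4 (2.25), Ccr6 (2.63), Ccr8 (2.15) and Ccr10 (3.03) the same on all arrays and 1 further CC receptor within 0.02.

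Within the set, the Cxcl attractants of neutrophils were below background throughout. Cxcl1 was at 4.02 on every array, Cxcl5 at 3.29, Cxcl2 at 1.32, 1.75 and 1.44, Cxcl3 at 1.53, 1.53 and 1.32, and Cxcl15 at 2.54, 2.22 and 2.03. Their receptors Cxcr1 and Cxcr2 were listed at 3.76 or less. Differences among such low values, of which that of Cxcl15 between Iso+Insl6 and Control (-0.51) was the furthest, give no fold. The interferon-induced Cxcl10 was at 3.49 on every array and Cxcl11, listed as a pseudogene in RefSeq's table, at 2.91, 2.91 and 2.96. The B cell attractant Cxcl13 (3.61) and its receptor Cxcr5 (3.94) had the same value on all arrays, as did the pair Xcl1 (2.82) and Xcr1 (3.13), which brings cross-presenting dendritic cells to T cells. The lymphoid and barrier tissue ligands Ccl1, Ccl17, Ccl20, Ccl26, Ccl28 and Cxcl17 also had the same value on each array, between 2.15 and 3.74, while Ccl3 and Ccl22 were lower by 0.14 and 0.19 on Iso+Insl6 alone.

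Equal values were common and need care. On all 3 arrays 30 of the 52 genes had an identical value to 2 decimals, 57.7%, against 50.7% of all named genes. All 30 of these shared their value with other genes that were also identical on all arrays. The value of Ccl4 and Ccl5, 4.24 on each array, was given to 95 genes, that of Ccl11 to 81, that of Ccl25 to 78, that of Cx3cl1 to 63 and that of Cxcl16 to 16. At low levels this went further, with the value of Xcl1 given to 359 genes and that of Ccl26 and Ccr8 to 336. Of the 22 chemokine and receptor genes whose arrays differed, 1 (Ccl22) shared its 3 values with another gene. Over all named genes, 99.0% of those with identical arrays shared their value and 9.15% of the others did. Which processing step gives these equal values was not tested, and an equal value is not read here as an unchanged gene.

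Iso was first compared with Control, for the effect of isoproterenol on a ventricle without INSL6. Genes were counted at 1.5-fold or more (log2 0.585) when the higher array was at or above background, which 18 of the 52 genes met. Of these, 0 were at least 1.5-fold higher and 1, Ccl6, at least 1.5-fold lower. Over 12415 genes the shares were 0.846% higher and 1.03% lower, and 1 gene of 18 allows no reading beyond that. Ccl6 was counted on its listed difference of -0.72, or 1.65-fold. Against background it was only known to be at least 1.19-fold lower, since its Iso value lay below that level. Ccr2 was higher by 0.50, and 1.21% of the 12415 genes had a difference as high. Ccl9 (-0.27) and Ccl7 (-0.26) had 4.71% and 5.07% of genes at or below them.

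Among ligands above background on both of these arrays, 0 of 11 were higher, 5 lower and 6 the same. The 5 were Ccl9, Ccl7, Cxcl14, Cxcl12 and Cxcl9, from -0.27 to -0.07, and the median of the 11 was 0.00. Of 11979 genes above background on both, 19.0% were higher and 27.2% lower, also with a median of 0.00. Ccl2 and Ccl6 stood outside this count, as did Ccl24, since genes that reach background on Control alone had to be lower. Of the 4 receptors, 3 were higher and 1 lower, from 0.50 for Ccr2 to -0.03 for Cx3cr1. Ccl2 and Ccl7, and Ccl9 and Ccl6, are pairs of neighbours on chromosome 11, while Ccl24, which was at 4.10 on Iso, lies on chromosome 5 and Ccl19, below background on both arrays, on chromosome 4. The 8 other ligands measured on chromosome 11 had equal values on Control and Iso. The 12 liver markers had a median of -0.25 between these arrays, with 8 lower, 3 of them at least 1.5-fold. Over all genes at or above background 27.3% were lower, and 1.03% at least 1.5-fold lower. On Iso+Insl6 all 12 liver markers were higher than on Control, by 1.42 to 3.26, against 23.1% of all genes at or above background. Ccl6 (-0.21) and Ccl9 (-0.14) were lower there than on Control. The part of the liver signal in these ligands was not tested.

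**Figure D3:**
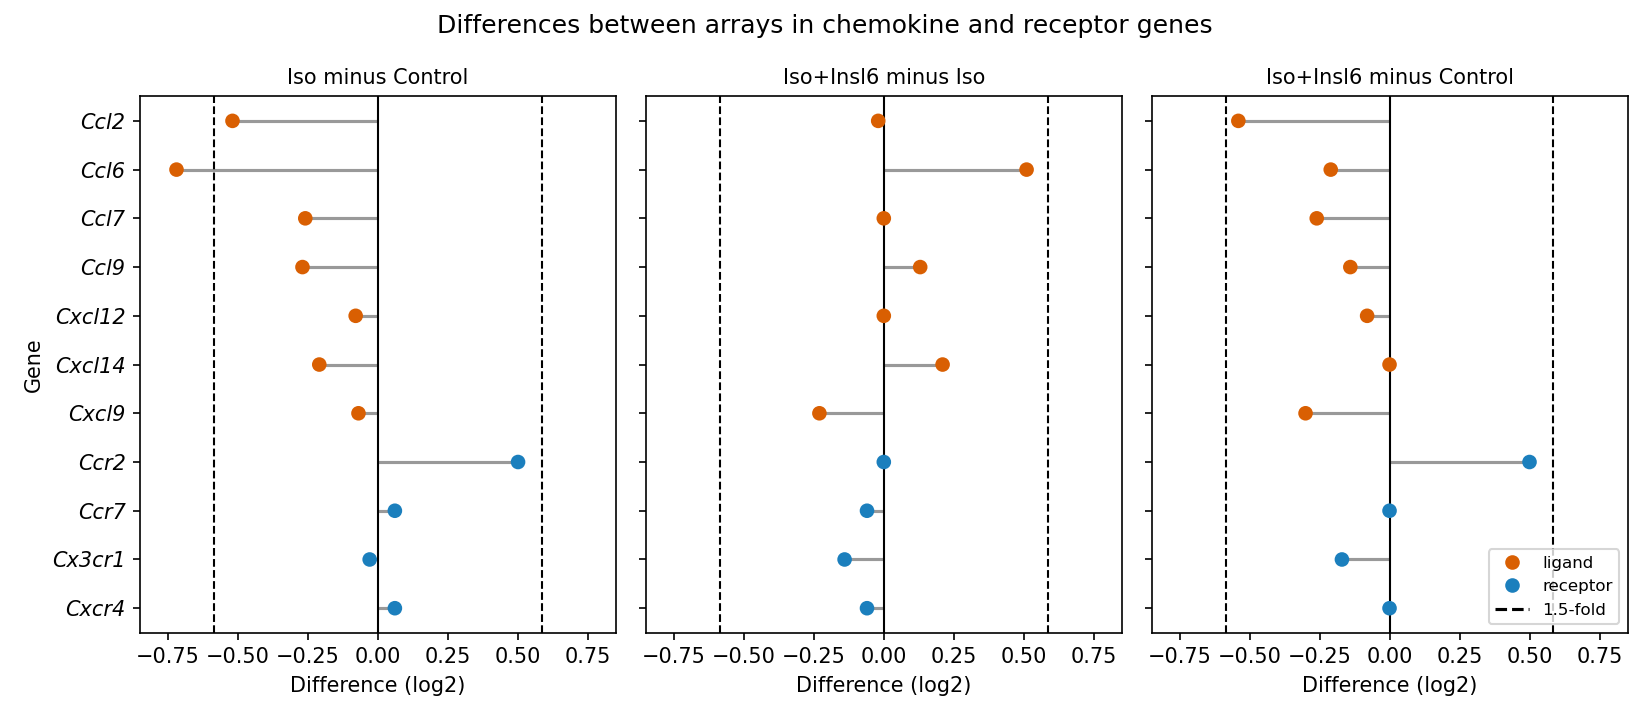
Log2 differences between arrays for the 11 genes above background on any array whose values were not all equal, with ligands in orange, receptors in blue and dashed lines at 1.5-fold. Ccl6 passes the line at -0.72 in Iso minus Control, and no gene passes it in the other panels.

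Iso+Insl6 was then compared with Iso, for the effect of INSL6 in mice given isoproterenol. This comparison and the first both use the single Iso array, so they are not independent. A low value there can make a gene lower on Iso and higher on Iso+Insl6 at once. No chemokine or receptor was at least 1.5-fold higher or lower, among 16 genes at or above background, against 1.49% higher and 0.506% lower of 12457 genes. Ccl6 had a listed difference of 0.51, but as its Iso value lay below background, this is at least 1.03-fold higher. Cxcl14 (0.21) and Ccl9 (0.13) were also higher, and Cxcl9 (-0.23), Cx3cr1 (-0.14), Ccr7 (-0.06) and Cxcr4 (-0.06) lower. The other 9 of the 16, Ccr2, Ccl7 and Cxcl12 among them, were the same on both arrays, and Ccl2 lay below background on both at 4.08 and 4.06. Beside these, the 12 liver markers differed by 1.91 to 3.19. The markers of macrophages and monocytes above background differed by -0.04 to 0.07.

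Iso+Insl6 against Control shares an array with each comparison above, so its values are given for completeness and add no independent evidence. Of 18 genes at or above background 0 were at least 1.5-fold higher and 0 lower, against 1.96% and 0.789% of 12420 genes. Ccl2 was lowest at -0.54, followed by Cxcl9 (-0.30), Ccl7 (-0.26), Ccl6 (-0.21), Cx3cr1 (-0.17) and Ccl9 (-0.14), and Ccr2 was highest at 0.50. Cxcl14, Cxcr4 and Ccr7 had the same values as on Control.

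**Figure D4:**
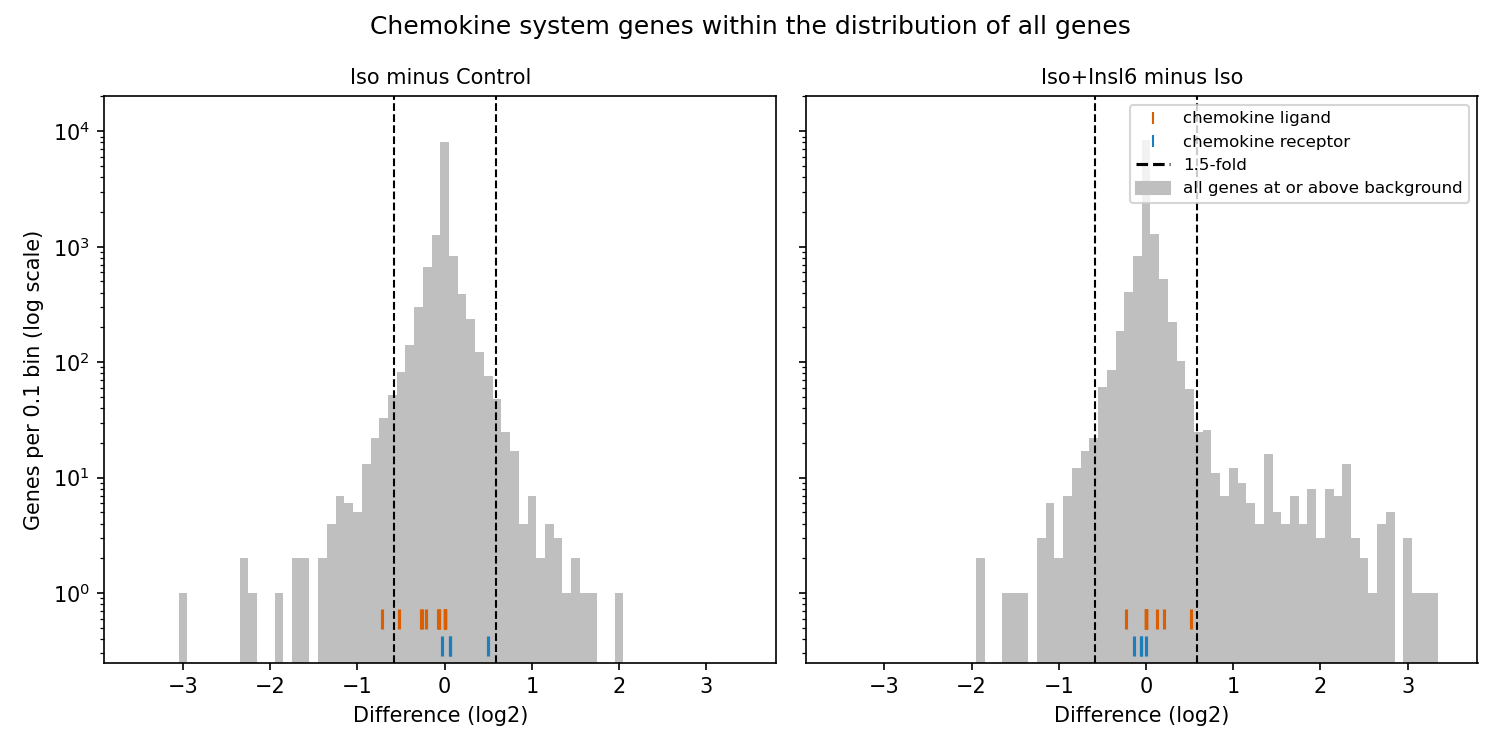
Number of genes per 0.1 bin of log2 difference (log axis) among genes at or above background on the higher array, in grey, with each chemokine ligand (orange) and receptor (blue) as a tick and dashed lines at 1.5-fold. The ticks lie between -0.72 and 0.50 in Iso minus Control and between -0.23 and 0.51 in Iso+Insl6 minus Iso, while liver genes such as Alb (2.15) lie in the right arm of the latter.

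Genes that stand around the chemokine system were listed by role. Of 7 atypical receptors and relatives, which bind chemokines or chemerin and mostly do not signal through G proteins, 5 were above background. Ackr3, the scavenger of CXCL12, was at 8.31, 8.33 and 8.41. Ackr4, which removes CCL19, CCL21 and CCL25, was at 5.15 on Control, 5.77 on Iso and 5.81 on Iso+Insl6. It was thus 1.54-fold higher on Iso and 1.58-fold higher on Iso+Insl6 than on Control, the only gene of the 7 past 1.5-fold. Over all genes at or above background 0.846% and 1.96% were at least 1.5-fold higher in those comparisons, and 1 gene of 7 allows no further reading. Ccrl2 was at 6.15, 6.16 and 6.16, Ackr2, which clears inflammatory CC chemokines, at 4.84 on every array, and the chemerin receptor Cmklr1 at 5.90, 5.51 and 5.76. Ackr1, the chemokine-binding protein of red cells and venules, lay below background at 2.36, 2.58 and 2.36. The platelet chemokines Pf4 (4.79) and Ppbp (4.73), whose symbols keep them out of the set, had the same value on every array.

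Of 38 genes of receptor signalling, 33 were at or above background on the higher of Control and Iso, 0 passed 1.5-fold in any comparison and the median was 0.00 in each. Among them were the G protein subunit Gnai2 (8.70, 8.73 and 8.70), the kinase subunit Pik3cg of leukocytes (4.36 on every array), the arrestin Arrb2 (5.42, 5.33 and 5.42) and the kinase Jak2 (6.85, 7.18 and 7.30). Of 34 genes of the cytokine and NF-kappa B pathways that induce chemokines, 25 were at or above background on the higher of Control and Iso. Of these 1 was past 1.5-fold: Rel, an NF-kappa B subunit, at 7.23, 6.57 and 6.66, was 1.58-fold lower on Iso than on Control. Over all genes at or above background 0.846% were at least 1.5-fold higher and 1.03% lower in that comparison. Neither 1 of these 25 nor 0 of the 33 receptor signalling genes allows a further reading. The inducers Tnf (3.67), Ifng (3.36) and Il6 (1.43) had the same value below background on all arrays and Il1b was at 3.45, 3.11 and 3.11. Of 19 genes of chemokine cleavage and heparan sulfate, Mmp14, a membrane protease, was 1.67-fold lower on Iso (5.70 against 6.44) and stood at 6.10 on Iso+Insl6. The heparan sulfate carrier Sdc2 was at 6.99, 7.48 and 7.31 and the heparan sulfate polymerase Ext1 at 7.27, 6.92 and 7.09. In this list 2 of 16 genes above background were higher and 9 lower on Iso than on Control, and 10 were higher and 3 lower on Iso+Insl6 than on Iso, with medians of -0.015 and 0.06. Over all genes at or above background the shares were 19.7% higher and 27.3% lower in the first of these comparisons and 27.9% and 18.0% in the second.

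Markers of cells that make chemokines were counted in the same way. Of 10 endothelial markers above background, 2 were higher and 7 lower on Iso than on Control, with a median of -0.045, and of 12 fibroblast markers 7 were higher and 4 lower, with a median of 0.06. Over all genes at or above background 19.7% were higher and 27.3% lower in that comparison. The VEGF receptor Kdr, at 9.51, 8.90 and 8.69, was 1.53-fold lower on Iso than on Control and 1.77-fold lower on Iso+Insl6 than on Control. Pi16, a marker of adventitial fibroblasts, was 1.53-fold higher on Iso. Between Iso+Insl6 and Iso, 10 of the 12 fibroblast markers were higher and 1 lower, against 27.9% and 18.0% of all genes, and none reached 1.5-fold. Against Control, 2 of the 12 fibroblast markers were at least 1.5-fold higher on Iso+Insl6, the matrix genes Postn (1.61-fold) and Lum (1.58-fold). The share over all genes was 1.96%. Of the 12 markers 8 were higher and 2 lower in that comparison, with Dpt furthest down at -0.20. Over all genes at or above background 23.1% were higher and 23.3% lower. The part of these cells in the ligand values was not tested.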

How the data were processed

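The deposited table gives 1 log2 value per probe set and array. RMA and affy, version 1.36.1, are the tools named in the submitters' processing notes; array type, settings and genome build are not given in the sources used here. The values run from 0.44 to 12.45, and 0 columns were left unmatched. Entrez gene numbers were matched to RefSeq's table (assembly GRCm38.p6), which named 23740 of 25206 probe sets, and the platform annotation held 51 of the 52 genes with equal symbols. Members and lists were chosen with earlier results of these data known. With 1 array per group, differences were counted by size at 1.5-fold among genes whose higher array was at or above background (the overall median), with Python 3.11.15 and pandas 2.3.3. These counts used the listed difference, also where the lower level lay below background. A fold given as "at least" for such a gene was taken against background and is a lower bound. The number of arrays limits the precision. The rule named every gene above background, every gene past 1.5-fold, and partners or list members for context; the RefSeq promoter table was searched on both strands over 250 bases. Protein sequences were not used here. Alternatives were a 2-fold threshold, another background, no level filter, cyclic loess (limma 3.58.1), centring, and leaving out pseudogenes. The counting step was tested on simulated data.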

Additional observations from a re-analysis of the deposited data

How the results depend on the processing

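With 1 array per group no array could be left out of a comparison. No paired analysis was possible because each group holds 1 array and the labels give no replicate numbers. At a 2-fold threshold 0 chemokine or receptor genes were lower on Iso than on Control, in place of 1. With the background set at 3.71, the 95th percentile of 1408 olfactory, vomeronasal and keratin-associated genes, 25, 23 and 23 of the 52 genes exceeded it on Control, Iso and Iso+Insl6, in place of 17, 15 and 16. Those gained included Cxcr3 (3.97), the receptor of CXCL9, Cxcl1 (4.02), Cxcr5 (3.94) and Cxcr1 (3.76), each on every array. Cxcr2 exceeded 3.71 on Control and Iso (3.76) but not on Iso+Insl6 (3.67). So did the neutrophil marker Mpo, at 3.96, 3.96 and 3.47. Where the text places these genes below background, that holds for the median alone. The remaining counts were within 1.5-fold of those reported under that background, with no level filter, cyclic loess, centring on genes above background, or without the pseudogene Cxcl11. Leaving out Cxcl11 could not change a count, since it lay below background on every array. With the Control and Iso arrays alone, chosen after seeing the data, 17 genes were above background, as with all 3. This too could not differ, since all 17 were above it on Control. Of 24 listed differences under each scaling, 0 reversed, and the furthest shift was 0.04, under centring. Little more was possible, since the arrays shared their median before scaling. Cyclic loess left those medians in place, and centring moved each array by 0.02 at most. With the median as background, the fold of Ccl2 and of Ccl6 is limited to a lower bound, since each lay below it on an array compared. At 3.71 Ccl2 lay above background on every array, and its listed folds were 1.43 on Iso and 1.45 on Iso+Insl6 against Control. Ccl6 lay below 3.71 on Iso, at 3.69.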
